A study of Homo sapiens with 6 samples.

Results

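Transcripts of 46 protein lysine and arginine methyltransferases were examined in T3M4, an established cell line derived from a human pancreatic ductal adenocarcinoma, after knockdown of METTL13. The 46 genes were chosen by name, as a list of enzymes, with no threshold on a measured value, and earlier results of these data were known when the list was made. Of them 45 were found in the table by symbol. ATPSCKMT was found by its Entrez gene ID under its older symbol FAM173B. The table holds 16617 genes in all. METTL13 itself and the methyltransferases that act on elongation factors do not belong to the set.

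There were 6 RNA sequencing libraries, 3 from T3M4 cells that received the control guide RNA sgControl, whose genotype is labelled WT, and 3 from T3M4 cells that received the guide RNA sgMETTL13, whose genotype is labelled METTL13 knockdown. Both groups grew in the same medium with fetal bovine serum. Whether the cells are clones or a pool, and whether the replicates are separate cultures, the sources used here do not say, so the deposited p-values measure the spread between these libraries, which may be technical. The deposited values are group averages over 3 libraries together with the authors' own comparison, and the value in each library is not analysed here.

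Methyltransferases transfer the methyl group of S-adenosylmethionine (SAM) to a protein side chain. Most of the lysine enzymes here carry a SET domain and act on histone H3, where the position of the lysine sets the meaning of the mark: H3K4 and H3K36 methylation go with active genes, H3K9 and H3K27 methylation with silencing. The PRMT enzymes methylate arginine in histones and in RNA-binding proteins. A further family with a seven-beta-strand fold, to which METTL13 also belongs, methylates mostly non-histone proteins; within the set NTMT1 acts on protein N-termini, and METTL18 and the SET-domain enzyme SETD3 act on histidine, so the heading of lysine and arginine enzymes does not cover these 3 genes.

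The targeted transcript was low in the sgMETTL13 group. METTL13 averaged 39.9 TPM (a level corrected for transcript length and library size) in sgControl and 5.63 TPM in sgMETTL13 (the authors' deposited table), and it fell 6.86-fold (adjusted p = 2.5e-127). In the authors' deposited table the estimated reads summed to 15240866 per average library in sgControl and 15247500 in sgMETTL13. All 8 ductal epithelial markers were present, with KRT19 at 2107 TPM in sgControl, per the authors' deposited table, and MSLN lowest at 2.60 TPM. Of the other cell types' markers, PTPRC, CD3E, COL3A1, CELA3A, INS and GCG had no row in the table used here. Summed levels in sgControl were 40.9 TPM for leukocytes (all of it CD68), 17.1 TPM for fibroblasts and 2.04 TPM for endothelium, and in sgMETTL13 they were 44.1, 17.3 and 1.44 TPM, from the authors' deposited table. The summed acinar markers had 0.81 TPM in sgControl and 1.96 TPM in sgMETTL13, and the endocrine marker CHGA was listed at 0 and 0.083 TPM, as the authors' deposited table gives them.

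None of the 46 methyltransferase transcripts was called by the test over all genes. The smallest adjusted p, the q-value of the authors' deposited table, was 0.101. At an adjusted p under 0.05, 3.80% of all genes were called. Among genes with at least the median read count of all genes 7.04% were called, beside 0 of the 36 members with that count. By direction, 0 members were called higher, against 2.73% of all genes, and 0 lower, against 1.08%. At these shares a set of this size would hold few calls. The absence of calls alone does not set the members apart from other genes. The log2 fold changes of sgMETTL13 over sgControl lay between -0.35 (0.787-fold) and 0.12 (1.09-fold), per the authors' deposited table, a narrow range. In the plot of all genes the members sit in the band around 0 while METTL13 lies far below it.

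**Figure D1:**
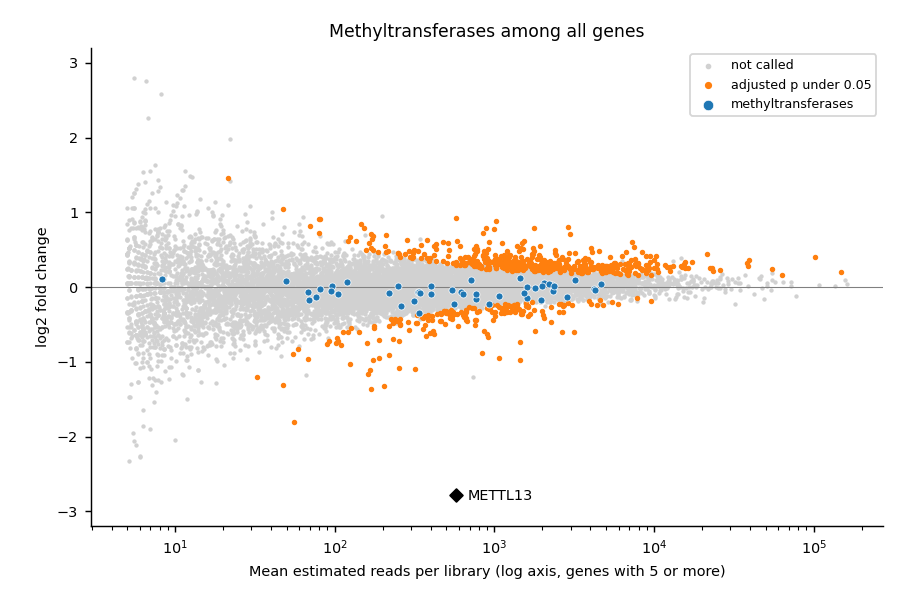
Log2 fold change (vertical axis) against mean estimated reads per library (horizontal axis, logarithmic) for 13324 genes with 5 or more reads; 1 further gene lies beyond the vertical axis. Orange points are genes with an adjusted p under 0.05, blue points the 46 methyltransferases, none of which is called, and the black diamond is METTL13.

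For most members a moderate estimated change would have been called. The members had a median of 626.4 mean reads, and 36 of them lay at or above the median of 205 reads over all genes. A standard error was implied for each gene by its deposited fold change and p-value; its median was 0.097 on the log2 scale over the members. The largest p that was still called in the authors' deposited table was 0.00186. With it the median member would have been called at an estimated change of 1.23-fold. That limit ran from 1.12-fold for PRMT1 to 4.17-fold for ETFBKMT. For 39 members the implied 95% interval lay within a log2 fold change of 0.5 either way, and for 45 within 1. Estimated changes smaller than a gene's limit would not have been called with the spread and depth of these libraries. The limit applies to the estimate, so a true change of that size could still have been missed.

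At an unadjusted p under 0.05 there were 7 members, and all 7 had lower values in sgMETTL13. That is 15.2% of the members, beside 4.80% of all genes that were lower at this threshold. All 7 were among the 36 members with at least the median read count. They made up 19.4% of those members, beside 7.27% of all genes with at least that count. In the other direction 0 members were higher, beside 7.65% of all genes and 13.7% of the genes with at least the median read count. The 7 were SMYD4, KMT2C, SMYD2, SETD2, NSD1, SUV39H2 and NSD3, and 3 of them write H3K36 methylation. Over all members 30 log2 fold changes were below 0 and 16 above, with a median of -0.055, per the authors' deposited table, where the median of all genes was 0.0014. The share below 0 was 65.2% for the members and 49.8% for all genes. By the ratio of average reads, a scale without the authors' normalization, 39 members (84.8%) were below 0, beside 60.2% of the genes with reads in both groups. The plot of fold changes by role shows that the intervals of most members cross 0.

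**Figure D2:**
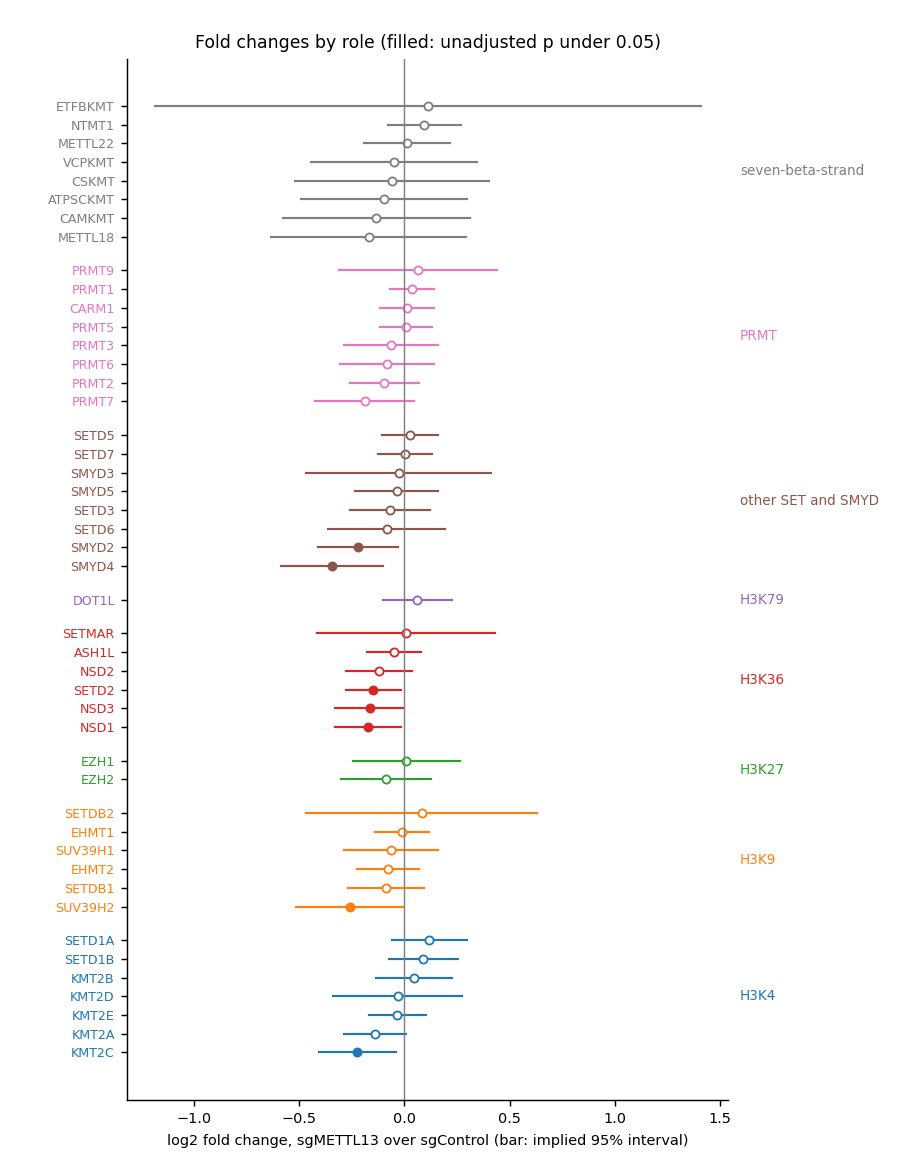
Log2 fold change of sgMETTL13 over sgControl for the 46 members, grouped by role, with implied 95% intervals as bars. Filled points mark the 7 members with an unadjusted p under 0.05, all to the left of 0; ETFBKMT has the widest interval, from -1.19 to 1.41.

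Transcript levels of the members differed far more between genes than between groups. In sgControl they ran from 453 TPM for PRMT1 to 0.363 TPM for ETFBKMT (the authors' deposited table), with a median of 24.1 TPM, and 34 members were at or above 10 TPM. The members together summed to 1715 TPM in sgControl and 1618 TPM in sgMETTL13, a ratio of 0.943. PRMT1 alone made up 26.4% and 27.3% of those sums. The TPM scale and the fold change scale of the authors' deposited table differ: the log2 fold change of genes with at least the median read count exceeded the log2 ratio of TPM by a median of 0.073. A member can therefore have a lower TPM in sgMETTL13 and a log2 fold change near 0 or above it. Because the table gives no spread of TPM over libraries, the order of neighbouring levels was not tested.

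**Figure D3:**
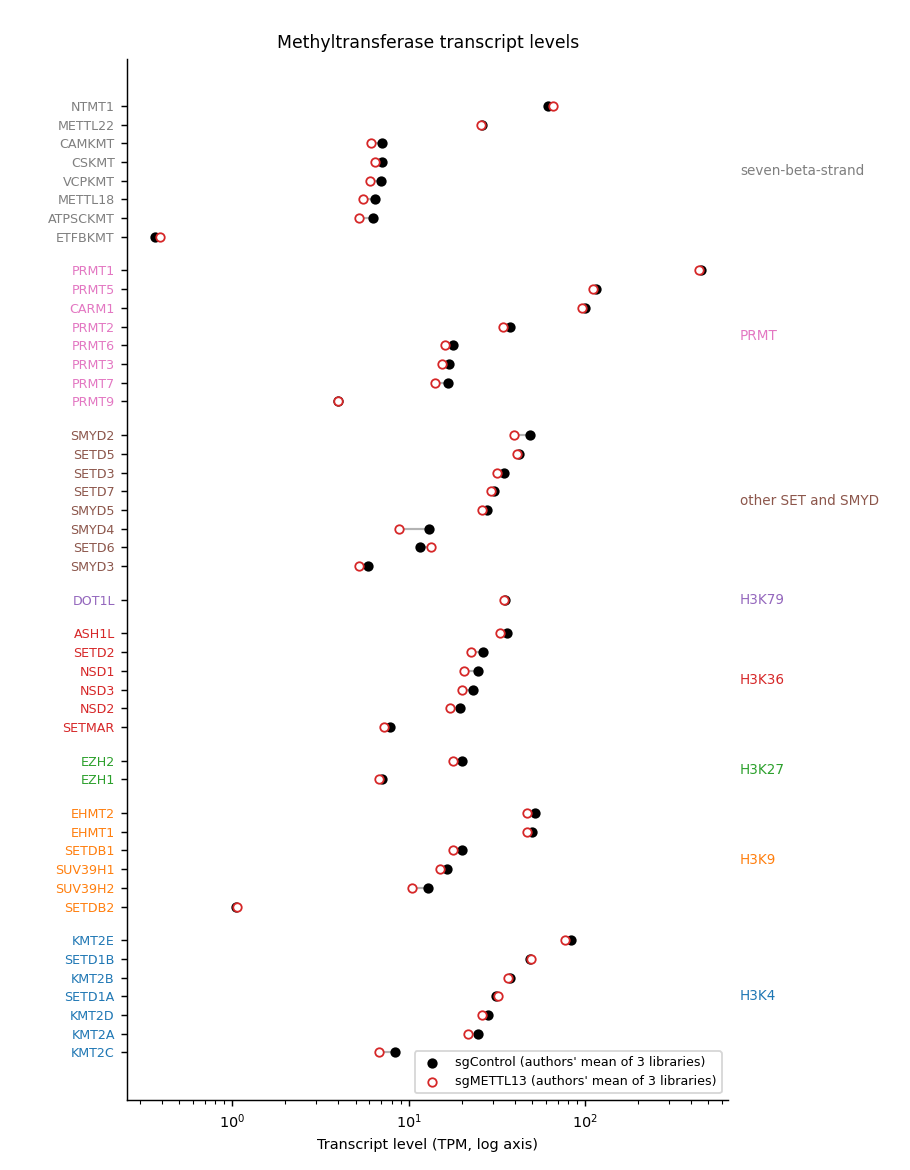
Average TPM on a logarithmic axis for each member in sgControl (black) and sgMETTL13 (open red), grouped by role. The pairs of points nearly coincide for most members; SMYD4 shows the widest gap, from 13.1 to 8.78 TPM.

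The H3K4 group holds the catalytic subunits of the MLL and SETD1 complexes, large proteins that mark promoters and enhancers, and their SET-domain relative KMT2E. None of the 7 was called, 4 were below 0 and 3 above, and the median log2 fold change was -0.031. KMT2C, an enhancer H3K4 monomethyltransferase on chromosome 7 (chr7:152134922-152436005, GRCh38, minus strand), had 1007 estimated reads on average in sgControl, 832 in sgMETTL13, per the authors' deposited table. Its level was 8.37 TPM and 6.82 TPM, the lowest of this group in both (the authors' deposited table). KMT2C has near-identical partial copies in the genome, and its average reads are among those that are not whole numbers, so its counts are uncertain. Its log2 fold change of -0.22 had an implied 95% interval from -0.41 to -0.040 and an adjusted p of 0.213 (the authors' deposited table). KMT2A, the MLL gene of leukemia translocations, went from 24.9 to 21.9 TPM with a log2 fold change of -0.14 (adjusted p = 0.453), per the authors' deposited table. The SETD1 enzymes, which deposit most H3K4 trimethylation, had values on the other side of 0, namely 0.12 for SETD1A (31.3 and 32.1 TPM) and 0.09 for SETD1B (49.1 and 49.5 TPM), per the authors' deposited table, with intervals that include 0. KMT2B (37.4 and 36.7 TPM) had a log2 fold change of 0.046, per the authors' deposited table. KMT2E was the most abundant of the group at 83.3 and 77.0 TPM (the authors' deposited table), with a log2 fold change of -0.034.

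KMT2D, a close relative of KMT2C that also methylates enhancers, stood out by its spread. It had average estimated reads of 4303 (sgControl) and 4065 (sgMETTL13), per the authors' deposited table, among the highest of the members, with a log2 fold change of -0.031. Its implied standard error of 0.156 exceeded that of genes with similar read counts 2.57 times. For the other 45 members this ratio lay between 0.885 and 1.37, and it exceeded 1.5 in 0.397% of the genes with at least the median read count. With this spread an estimated change in KMT2D below 1.40-fold would not have been called. Which library carries the spread is not analysed here.

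H3K36 methyltransferases act on transcribed gene bodies, with SETD2 adding the trimethyl mark and NSD1, NSD2 and NSD3 the dimethyl mark. Of 6 genes none was called, and 5 were below 0, with a median log2 fold change of -0.13, the lowest median of the 8 roles. With the trend in base composition and length described further on removed, it was -0.086, and the H3K9 group was lower at -0.11. SETD2 averaged 1706 and 1486 estimated reads and 26.3 and 22.6 TPM in sgControl and sgMETTL13 (the authors' deposited table). The log2 fold change of SETD2 was -0.15 (implied 95% interval from -0.28 to -0.015; adjusted p = 0.292), per the authors' deposited table. NSD1, on chromosome 5 (chr5:177133025-177300215, plus strand), averaged 2118 and 1811 reads and 24.9 and 20.7 TPM (the authors' deposited table), with a log2 fold change of -0.17 (interval from -0.33 to -0.018; adjusted p = 0.296). For NSD3 the averages were 822 and 707 reads, and the log2 fold change was -0.17 (interval from -0.33 to -0.0032; adjusted p = 0.389), per the authors' deposited table. NSD2, a translocation target in myeloma, had -0.12 and an interval that includes 0 (the authors' deposited table). The values of these 4 enzymes lay within 0.054 of each other on the log2 scale. That range is smaller than the implied standard error of each, from 0.067 for SETD2 to 0.083 for NSD3. ASH1L, an H3K36 enzyme with 35.98 and 33.0 TPM, had -0.049, and SETMAR, a SET domain fused to a transposase, had 0.0086 at 7.84 and 7.29 TPM, per the authors' deposited table.

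The H3K9 enzymes build heterochromatin. None of 6 was called, and 5 were below 0, with a median log2 fold change of -0.071. SUV39H2, which adds the trimethyl mark of constitutive heterochromatin, averaged 289 and 233 estimated reads and 12.9 and 10.5 TPM (the authors' deposited table). Its log2 fold change of -0.26 (interval from -0.51 to -0.0061) had an adjusted p of 0.383, per the authors' deposited table. Its relative SUV39H1 was at 16.6 and 15.1 TPM with -0.065 (the authors' deposited table), and its interval includes 0. The partners EHMT2 (G9a) and EHMT1 (GLP), which act as a heterodimer on H3K9, were nearly equal in level, with a TPM ratio of 1.04 in sgControl and 1.01 in sgMETTL13. SETDB1, which silences retroelements, had 19.997 and 17.9 TPM (the authors' deposited table), 18.9 times the TPM of SETDB2 in sgControl and 16.8 times in sgMETTL13.

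H3K27 methylation by Polycomb repressive complex 2 (PRC2) rests on EZH2 or EZH1. EZH2, the form of dividing cells, averaged 20.05 TPM in sgControl and 17.8 TPM in sgMETTL13, per the authors' deposited table. EZH1 averaged 7.08 and 6.78 TPM (the authors' deposited table), so that EZH2 stood 2.83 and 2.63 times above it. Neither was called, with log2 fold changes of -0.089 and 0.0093, per the authors' deposited table. DOT1L, the H3K79 methyltransferase, which has no SET domain, was at 35.2 and 34.7 TPM with 0.061 and an adjusted p of 0.949 (the authors' deposited table).

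Other SET-domain and SMYD enzymes act largely on non-histone proteins. Of 8 none was called, 6 were below 0, and the median was -0.054. SMYD4, on chromosome 17 (chr17:1779485-1830634, minus strand), came nearest to the threshold of all members. It had 384 estimated reads on average in sgControl, 292 in sgMETTL13, and its level was 13.1 and 8.78 TPM, per the authors' deposited table. The log2 fold change of SMYD4 was -0.35 (interval from -0.59 to -0.10) with an unadjusted p of 0.00542 and an adjusted p of 0.101 (the authors' deposited table). When the adjustment was made over genes with at least the median read count alone, its adjusted p was 0.0552. SMYD2, which methylates p53 among other proteins, lies on chromosome 1 (chr1:214281102-214337131, plus strand) and averaged 607 and 502 reads and 48.7 and 39.6 TPM, per the authors' deposited table. It had a log2 fold change of -0.22 (interval from -0.41 to -0.031; adjusted p = 0.254), per the authors' deposited table. SMYD3, known for methylating the kinase MAP3K2 in RAS-driven tumours, was scarce at 5.85 and 5.22 TPM and had -0.028, per the authors' deposited table. SMYD2 stood 8.32 times above SMYD3 in TPM in sgControl and 7.59 times in sgMETTL13. SMYD5 (27.9 and 26.04 TPM), SETD3 (34.9 and 31.7 TPM), which methylates a histidine of actin, SETD5 (42.5 and 41.1 TPM) and SETD7 (30.4 and 29.2 TPM) had log2 fold changes between -0.070 and 0.028 (the authors' deposited table).

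SETD6, a methyltransferase of the NF-kB subunit RELA, gave opposite directions by reads and by TPM. It had 229 estimated reads on average in sgControl, 208 in sgMETTL13, per the authors' deposited table, a ratio of 0.909. Its level was 11.6 TPM in sgControl and 13.4 TPM in sgMETTL13 (the authors' deposited table), a ratio of 1.16. The reads that stood for 1 TPM went from 19.8 to 15.5, a quantity that follows the length of the transcripts to which reads are assigned. The log2 TPM ratio exceeded the log2 read ratio by 0.37 after the median difference was taken off, and 0 of the 8309 genes with at least the median read count showed a larger gap in either direction. SMYD4 had a gap the other way, of -0.15, with 29.4 and 33.3 reads per TPM, and 0.505% of those genes had a larger gap. NTMT1 followed with a gap of 0.080. Beyond these 3 no member at or above the median read count lay outside the range from -0.050 to 0.062 that holds the central 95% of those genes. SETD6, SMYD4 and NTMT1 are among the 15 members whose average reads, summed over 3 libraries, are more than 0.005 from a whole number in either group, as happens when a read is divided between genes. SETD6 (chr16:58515479-58521181, plus strand) shares 29.9% of its annotated exonic bases with CNOT1 on the opposite strand, and the sources used here do not say whether the libraries keep strand. NTMT1 shares 35.9% with genes on the opposite strand, and PRMT5 shares 34.8%. The part of such overlap in these values was not tested.

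**Figure D4:**
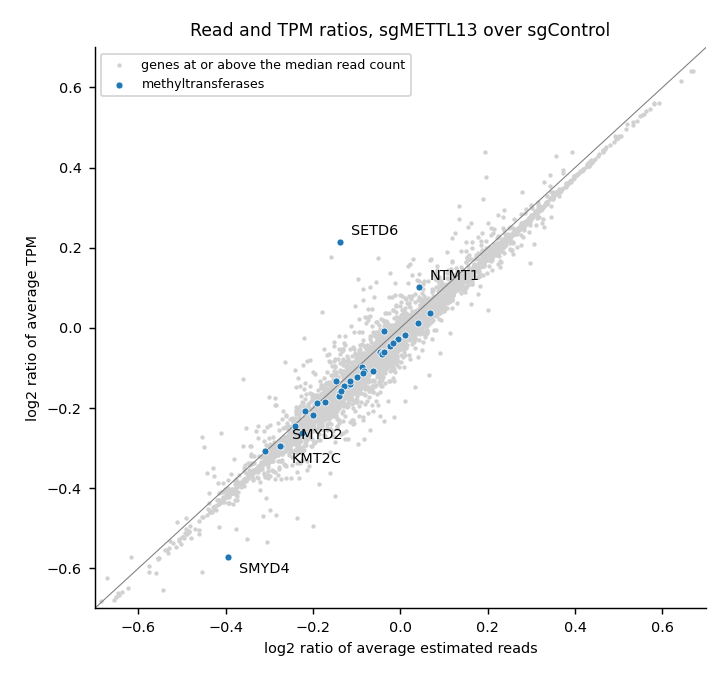
Log2 ratio of average TPM (vertical axis) against log2 ratio of average estimated reads (horizontal axis), sgMETTL13 over sgControl, for genes with at least the median read count, with 20 genes beyond the axes; the line marks equal ratios. The blue members follow the grey cloud except SETD6 above it and SMYD4 below it.

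Arginine methyltransferases held the most abundant members. The 8 PRMT genes summed to 762.2 TPM in sgControl and 732 TPM in sgMETTL13, and none was called. PRMT1, the main asymmetric dimethylase, made up 59.4% of the sum in sgControl and 60.3% in sgMETTL13. It averaged 4685 and 4632 estimated reads and 453 and 441 TPM, per the authors' deposited table, with a log2 fold change of 0.035 and the tightest interval of the members, from -0.069 to 0.14. PRMT5, the main symmetric dimethylase, was at 116 and 111 TPM with 0.0086, and CARM1, a coactivator of nuclear receptors, at 100.2 and 96.1 TPM with 0.013 (the authors' deposited table). PRMT7, a monomethylase, had the lowest value of the group at -0.19 (16.8 and 14.2 TPM; adjusted p = 0.602), per the authors' deposited table, and its interval, from -0.43 to 0.046, includes 0. PRMT2 (37.7 and 34.4 TPM), the ribosomal protein methyltransferase PRMT3 (16.9 and 15.4 TPM) and PRMT6 (17.9 and 16.01 TPM) had log2 fold changes of -0.095, -0.064 and -0.084 (the authors' deposited table). PRMT9, which acts on a splicing factor, was the least abundant at 3.99 and 3.97 TPM with 0.064, per the authors' deposited table.

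Enzymes of the seven-beta-strand fold were mostly scarce. The 8 genes summed to 121.8 TPM in sgControl and 121.6 TPM in sgMETTL13, and none was called. NTMT1, which methylates the N-terminus of RCC1, supplied 50.6% and 54.3% of those sums, with 61.6 and 66.1 TPM and a log2 fold change of 0.095 (interval from -0.080 to 0.27), per the authors' deposited table. METTL22 was at 25.95 and 25.8 TPM with 0.012, per the authors' deposited table. CAMKMT, the calmodulin methyltransferase, VCPKMT, which acts on the ATPase VCP, and METTL18, which modifies a histidine of a ribosomal protein, had -0.13, -0.050 and -0.17 at 7.11, 7.01 and 6.49 TPM in sgControl (the authors' deposited table). The mitochondrial enzymes ATPSCKMT (ATP synthase c subunit) and CSKMT (citrate synthase) had -0.098 and -0.060 at 6.25 and 7.07 TPM in sgControl, per the authors' deposited table. ETFBKMT, the mitochondrial enzyme that acts on electron transfer flavoprotein, was listed at 8.33 estimated reads in both groups (the authors' deposited table). With so few reads an estimated change below 4.17-fold would not have been called.

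Fold changes varied with base composition, among the members as among other genes. Over the 46 members the log2 fold change correlated with the GC content of the longest annotated transcript at r = 0.33 (Spearman 0.32), and over 8289 genes with at least the median read count at r = 0.33 (Spearman 0.37); genes of the same libraries are not independent. Of the 23 members below the median GC content of 47.9%, 18 were below 0 with a median log2 fold change of -0.089, and 6 of the 7 with an unadjusted p under 0.05 were among them. Of the 23 others, 12 were below 0 with a median of -0.010. When a smooth trend in GC content and length, fitted over all genes, was removed, 3 members had an unadjusted p under 0.05, all lower: SMYD4 (-0.35), SMYD2 (-0.24) and PRMT7 (-0.24). That is 6.52% of the members, near the 5.46% of all genes that were lower on the same scale. All 3 were among the 36 members with at least the median read count, and 8.25% of all genes with that count were lower. At this threshold 0 members were higher on this scale, beside 5.18% of all genes and 8.98% of those with at least that count. SETD2, NSD1, NSD3, KMT2C and SUV39H2 no longer had an unadjusted p under 0.05, at -0.096, -0.13, -0.11, -0.17 and -0.24. After the removal 33 members (71.7%) were below 0, beside 54.8% of all genes. Their median went from -0.055 to -0.070, and that of all genes from 0.0014 to -0.020. Whether base composition accounts for the members' lower values was not tested. In the 23 members with the higher GC content the median went from -0.010 to -0.057, and in the 23 with the lower from -0.089 to -0.079. With transcript length the members' fold changes had no such relation (r = 0.0018, n = 46), whereas over the 8289 genes r was -0.25.

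Partners of the enzymes and other genes of the methylation cycle held 4 calls. Of 134 measured genes in 7 pathway lists, 2 were higher and 2 lower, or 2.99%, beside 3.80% of all genes. The plot of the lists shows them with most other genes close to 0.

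Among 28 genes listed as other protein methyltransferases or their relatives, 1 was called. At an unadjusted p under 0.05, 1 of the 28 was higher and 2 were lower. PRDM1 (BLIMP1), a SET-related transcriptional repressor, rose from 107 to 186 estimated reads and from 2.82 to 4.77 TPM, per the authors' deposited table, a log2 fold change of 0.85 (95% interval from 0.48 to 1.21; adjusted p = 0.000422). In PRC2, SUZ12, a core subunit that holds EZH2 or EZH1, fell from 1065 to 871 reads and from 31.5 to 25.8 TPM (the authors' deposited table), with a log2 fold change of -0.24 (interval from -0.39 to -0.090; adjusted p = 0.0441). SUZ12 was the 1 called gene of 10 measured PRC2 subunits, and with the trend in base composition and length taken out it had a log2 fold change of -0.19 and was not called (adjusted p = 0.203). In that list 0 genes were higher and 2 lower at an unadjusted p under 0.05. Beside this and the counts for the other lists, 7.65% of all genes were higher and 4.80% lower at this threshold. No gene was called among 16 subunits of the MLL and SETD1 complexes, where the SETD1 subunit CXXC1 came nearest at 0.27 (adjusted p = 0.0581), per the authors' deposited table. At an unadjusted p under 0.05 that list had 1 higher and 1 lower. The 5 PRMT5 partners gave no call either, with 1 higher and 0 lower at an unadjusted p under 0.05, the higher being the PRMT5 cofactor WDR77 at 0.21 (adjusted p = 0.149), per the authors' deposited table.

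Demethylases, which remove the marks, gave 1 call among 26, with 3 higher and 3 lower at an unadjusted p under 0.05. KDM7A, a demethylase of H3K9 and H3K27, rose from 835 to 1028 estimated reads, per the authors' deposited table, a log2 fold change of 0.35 (interval from 0.20 to 0.51; adjusted p = 0.000622). KDM1A (LSD1), the flavin-dependent H3K4 demethylase, had -0.21 and an adjusted p of 0.0535 (the authors' deposited table); it was called lower with fold changes centred on the median of genes with at least the median read count (adjusted p = 0.0356) and with the trend removed (adjusted p = 0.0303). Of 16 genes of the methionine and SAM cycle, which supplies the methyl donor, none was called, and 0 were higher and 3 lower at an unadjusted p under 0.05, beside 7.65% and 4.80% of all genes. Those 3 were the methionine synthase gene MTR (-0.29, adjusted p = 0.0691), AHCYL1 (-0.22, adjusted p = 0.0855) and the nicotinamide methyltransferase gene NNMT (-0.36, adjusted p = 0.0875), per the authors' deposited table. The median of that list was -0.10, the lowest of the 7 lists. It includes MAT1A (-0.95), BHMT (-0.95), BHMT2 (-0.54) and GNMT (0.57), which had only 2.0, 1.5, 2.66 and 2.83 mean reads. Among 34 readers of methyl marks UHRF1, which reads H3K9 methylation in DNA methylation maintenance, was the 1 call, falling from 23.4 to 15.5 TPM with a log2 fold change of -0.52 (adjusted p = 1.45e-06), per the authors' deposited table. The 34 readers held 4 higher and 6 lower at an unadjusted p under 0.05.

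**Figure D5:**
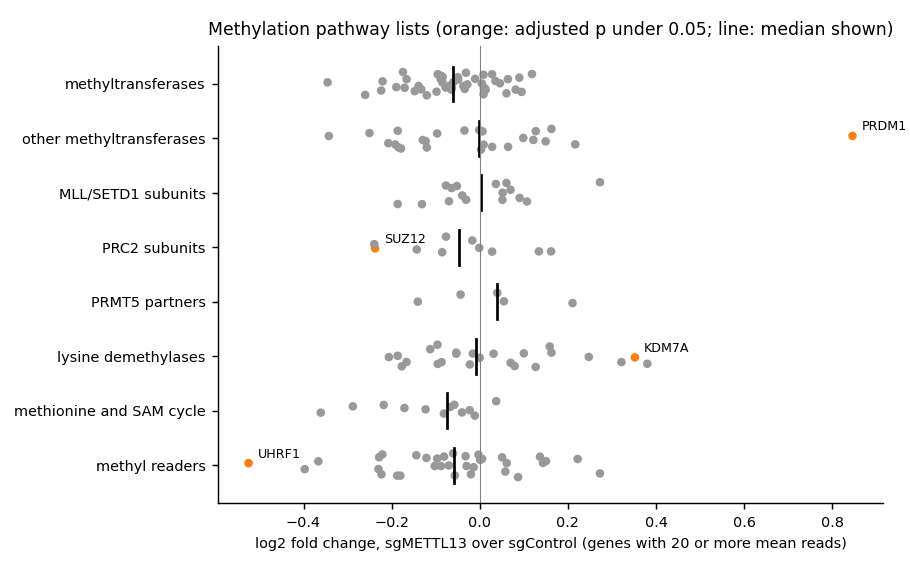
Log2 fold change of each gene with 20 or more mean reads in the methyltransferase set (45 genes shown) and in 7 lists of partners and other methylation genes (125 genes, with KDM6A in 2 lists). Orange points are the called genes PRDM1, SUZ12, KDM7A and UHRF1, and black lines mark the median of the points shown; no methyltransferase of the set is orange.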

How the data were processed

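RNA of 3 sgControl and 3 sgMETTL13 libraries of T3M4 cells was extracted with TRIzol, per the labels' protocols. Tools in the submitters' processing notes are RSEM 1.2.12, HISAT2 2.0.4, DESeq2 and Bowtie2 2.2.5, with builds hg38 and GRCh38.p12; the sources used here do not give the role of each. Per the file headers, the deposited table gives for each group the average TPM, FPKM (not used) and read count, which are estimated counts (expected counts), and the log2 ratio KD/WT, its p-value and, here called the adjusted p, its q-value. The depth of each library is unknown.

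The table has no values per library, so the planned count model on libraries was replaced by the authors' deposited comparison, with calls at an adjusted p under 0.05 over all 16617 genes. A standard error was implied by the deposited log2 fold change and two-sided p under a normal test, with 95% intervals. Members and lists were chosen with earlier results of these data known. Named with statistics are called genes, the 10 members with the largest fold changes at or above the median read count, the extremes of each role and up to 4 called genes (or the 1 nearest) of each list; further members and genes, among them KDM1A, AHCYL1 and NNMT, were named after their values were seen. Coordinates, GC content and length come from GENCODE 29 (GRCh38), for 97.5% of genes. Trends were natural splines with 4 degrees of freedom. Steps were run on simulated data, in Python 3.11.15 (scipy 1.17.1, numpy 2.4.6, matplotlib 3.10.9, patsy 1.0.2, pandas 2.3.3). The simulated p-values came from known standard errors under the same normal test. The implied standard errors were therefore not checked against the authors' own test. Alternatives were other thresholds, adjustments, a read filter, centring, pseudocounts on TPM of 0.1 and 1, and removal of the trend.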

Additional observations from a re-analysis of the deposited data

How the results depend on the processing

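No member was called in any of the 7 alternatives run on the calls (thresholds of 0.01 and 0.1, Bonferroni, recomputed Benjamini-Hochberg, genes with at least the median read count, centring, trend removed). With a smallest deposited adjusted p of 0.101, the thresholds and Bonferroni could not have called a member. The recomputed adjustment differed from the deposited one by at most 1.2%. The smallest adjusted p was 0.0552 with the read filter, 0.0865 with centring and 0.116 with the trend removed. With centring 8 members had an unadjusted p under 0.05, all lower, or 17.4% beside 5.54% of all genes. In the other direction 0 members were higher, beside 6.8% of all genes. The median log2 fold change of the members stayed below 0, from -0.050 (members matched by symbol, an alternative added after the data were seen) to -0.13 (TPM, pseudocount 0.1). Centring changed the sign of 4 members, whose deposited log2 fold changes were at most 0.0093 in size, and removal of the trend that of 7, at most 0.095 in size after rounding. Over all genes 453 were higher and 179 lower. Lower calls numbered 104 at a threshold of 0.01, 269 at 0.1 and 44 by Bonferroni; higher calls numbered 136 by Bonferroni and 270 with the trend removed. Trend removal took the share of higher calls from 71.7% to 61.6%, and centring alone to 66.6%. In the pathway lists lower calls numbered 1 at 0.01, 6 at 0.1, 1 by Bonferroni and 6 with the read filter, and higher calls 5 at 0.1 and 0 by Bonferroni. PRDM1 is below the read filter and was not tested with it. The cause of these differences was not tested beyond the thresholds themselves. No paired analysis was possible because only averages of each group are in the table, and for the same reason replicates could not be left out and no count model was run. Depth limited the 10 members below the median read count most.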
